A study of Homo sapiens with 6 samples.

Results

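Canonical Wnt signaling was examined at the mRNA level through 10 of its genes, chosen by name from the deposited count table of 21462 genes: the ligand WNT10A, the receptors FZD6, LRP5 and LRP6, the secreted antagonist DKK1, the receptor-removing ubiquitin ligase RNF43, the transcription factors TCF7, TCF7L2 and LEF1, and the feedback target AXIN2. RNA sequencing compared control A431 cells (A431CT, genotype WT) with Dsg2 knockout A431 cells (Dsg2KO, genotype DSG2 KO), with 3 libraries per condition and no drug treatment named in the labels of either. A431 is a human epidermoid carcinoma line used as a keratinocyte model, and both lines came from CRISPR/Cas9 work of another laboratory. Whether the knockout is a single clone is not given in the sources used here. All 3 Dsg2KO libraries come from the same edited line, so loss of Dsg2 and any other difference between the lines cannot be told apart.

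In canonical Wnt signaling, a secreted Wnt protein joins a Frizzled receptor to the co-receptor LRP5 or LRP6, and the complex that degrades β-catenin is switched off. β-catenin then enters the nucleus and binds TCF/LEF factors on target genes. Several targets are themselves inhibitors, such as AXIN2, which rebuilds the degradation complex, RNF43, which removes Frizzled from the cell surface, and DKK1, which binds LRP5 and LRP6. In epidermis the pathway is best known for hair follicle formation, and β-catenin also holds classical cadherins at cell-cell junctions.

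DSG2 itself was at 16.1% of its A431CT level in Dsg2KO cells, a log2 fold change of -2.64 (SE, the standard error, 0.05; adjusted p = 1.29e-14, edgeR's quasi-likelihood test). Library totals were between 12845719 and 16255692 counts. Of 12 keratinocyte markers, 10 passed the filter on low counts, and KRT14 and PKP1 had at most 2 counts in any library. By edgeR's adjusted p-value KRT6A (log2 fold change -1.03), SFN (-0.46), DSC3 (-0.31) and KRT5 (-0.13) were lower in Dsg2KO cells, and CDH1 (0.28) and EGFR (0.11) were higher. The summed marker level was 10463 to 11174 CPM (counts scaled to a common library size with TMM factors) in A431CT libraries and 11068 to 11445 in Dsg2KO libraries, of which EGFR alone supplied means of 8446 and 9128 CPM. None of 6 fibroblast markers passed the filter, and COL1A2 and PDGFRA had 0 counts. Among leukocyte markers CD3E had 0 counts, and the summed level, 237 to 241 CPM in A431CT and 149 to 162 CPM in Dsg2KO libraries, came almost wholly from CD68, which many cell types express. Melanocyte markers summed to 3.02 to 4.49 and 3.42 to 3.85 CPM, with MLANA at 0 counts. The 3 endothelial markers summed to 8.44 to 11.3 CPM in A431CT and 15.01 to 15.5 in Dsg2KO libraries, and CDH5 and PECAM1 had log2 fold changes of 0.76 and 0.54. The part of these markers in the results was not tested.

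Short stretches upstream of annotated start sites are shown for DKK1, whose difference had the smallest p-value of the 10 genes, for both starts of TCF7, which passed both thresholds, and for SP5, a direct β-catenin target. Each is the 250 bases before the start, 5′ to 3′ on the strand of the gene, from RefSeq on GRCh38.p14. Capitals mark matches to a motif of TCF/LEF factors, CTTTGAT or CTTTGTT on either strand. The search was by letters only, and binding was not measured. No other motif was searched.
DKK1, chr10:52314031-52314280, plus strand: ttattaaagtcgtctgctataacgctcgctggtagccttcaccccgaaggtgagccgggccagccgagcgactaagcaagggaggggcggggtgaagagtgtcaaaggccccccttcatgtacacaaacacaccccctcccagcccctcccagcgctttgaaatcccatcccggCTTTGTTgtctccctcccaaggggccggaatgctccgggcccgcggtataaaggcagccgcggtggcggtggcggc
TCF7 upstream start, chr5:134115363-134115612, plus strand: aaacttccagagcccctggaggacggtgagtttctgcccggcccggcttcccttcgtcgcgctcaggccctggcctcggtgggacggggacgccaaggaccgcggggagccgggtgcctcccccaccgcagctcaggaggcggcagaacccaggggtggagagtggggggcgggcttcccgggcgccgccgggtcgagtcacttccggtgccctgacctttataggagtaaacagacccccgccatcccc
TCF7 downstream start, chr5:134123368-134123617, plus strand: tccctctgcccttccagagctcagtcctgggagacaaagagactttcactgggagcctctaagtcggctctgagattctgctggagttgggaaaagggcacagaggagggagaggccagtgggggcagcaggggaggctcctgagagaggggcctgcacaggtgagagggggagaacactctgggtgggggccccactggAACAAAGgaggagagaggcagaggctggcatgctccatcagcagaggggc
SP5, chr2:170715087-170715336, plus strand: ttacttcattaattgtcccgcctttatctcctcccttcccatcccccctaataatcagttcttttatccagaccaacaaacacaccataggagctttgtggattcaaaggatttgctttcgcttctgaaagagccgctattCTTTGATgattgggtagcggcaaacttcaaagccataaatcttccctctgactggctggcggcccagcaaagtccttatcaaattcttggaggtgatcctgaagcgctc

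The motif began 76 bases before the DKK1 start, 109 before that of SP5 and 50 before the downstream start of TCF7. The upstream start of TCF7 held none of these letters. A window was found for 7 of the 10 genes, with 11 windows in all, and 3 windows held a match: DKK1, the downstream start of TCF7 and the second of the 3 starts of TCF7L2. Over all 35116 windows of this length, 6.60% held either form. Of 87 windows found for 67 of the other pathway genes, 2 held it, those of SP5 and CSNK1E. AXIN2, LRP6 and FZD6 had no entry. The downstream start of TCF7 is known to give a shorter protein that lacks the β-catenin-binding end, and counts per gene do not separate the forms.

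Of the 10 genes, 7 passed the low-count filter and were tested. TCF7 was the 1 gene past both thresholds (a Benjamini-Hochberg adjusted p under 0.05 in edgeR's quasi-likelihood test, and a size minimum of 0.5 for the log2 fold change in either direction), and it was lower in Dsg2KO cells. Over all 12857 genes tested, 6.03% passed both (2.99% higher and 3.03% lower). By the adjusted p-value alone, DKK1, LRP5 and TCF7 were lower and LRP6 and TCF7L2 higher, which is 5 of 7 genes beside 29.6% of all genes tested (14.3% higher and 15.3% lower). The 10 genes were chosen with earlier results of these data known, so such shares are a description only. For 5 of the 7 genes every Dsg2KO library lay on 1 side of every A431CT library: LRP6, TCF7L2 and FZD6 were higher and TCF7 and DKK1 lower. Such separation held for 42.6% of all genes tested, 21.2% higher and 21.4% lower. The median log2 fold change of the 7 tested genes was -0.22, which is the value of LRP5, against -0.0048 over all genes tested. The 7 values went in both directions, from -1.19 to 0.35. In bulk RNA, fewer cells expressing a gene and less RNA per cell cannot be told apart.

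**Figure D1:**
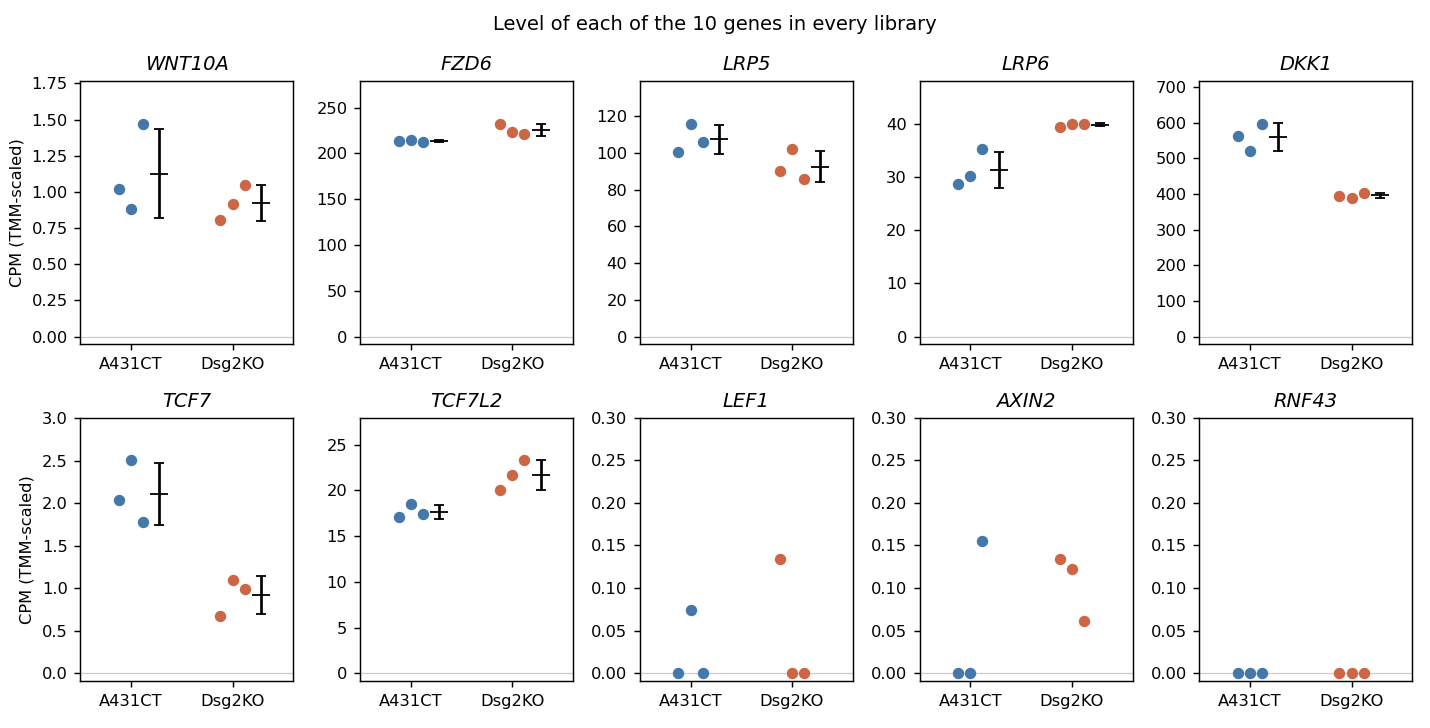
Level of the 10 genes in each library, in TMM-scaled CPM on a linear axis from 0. Points are libraries, and bars beside them are the mean and SD of 3 libraries for the 7 genes that were tested. DKK1 and TCF7 lie lower and LRP6 and TCF7L2 higher in all Dsg2KO libraries, and LEF1, AXIN2 and RNF43 lie at or near 0 in both conditions.

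Among ligands, WNT10A, which is required for teeth, hair and sweat glands, was barely expressed. It had 13, 12 and 19 counts in A431CT libraries and 12, 15 and 17 in Dsg2KO libraries. The conditions overlapped. Its log2 fold change was -0.28, with a 95% interval from -1.06 to 0.51 (adjusted p = 0.625, edgeR), so a change of the size minimum was not excluded in either direction.

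FZD6, a Frizzled receptor of skin and nails that also works in planar cell polarity, was the most strongly expressed of the 10 Frizzled genes per kilobase of exon. Its level was 213, 214 and 213 CPM in A431CT cells and 232, 224 and 221 CPM in Dsg2KO cells. All Dsg2KO libraries lay above the A431CT libraries, by little. The log2 fold change was 0.08 (SE 0.04, 95% interval -0.0010 to 0.16, adjusted p = 0.131, edgeR), which did not pass the test. Of the summed Frizzled level per kilobase, FZD6 supplied 57.4% ± 0.391 in A431CT and 55.1% ± 0.649 in Dsg2KO libraries (SD, n = 3 each), with an exact two-sided permutation p = 0.1 (adjusted p = 0.2 over 4 such ratios).

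The LRP co-receptors differed in opposite directions. LRP6 was at 28.6, 30.2 and 35.2 CPM in A431CT libraries and at 39.5, 40.0 and 40.0 CPM in Dsg2KO libraries, and the conditions did not overlap. The mean was 1.27-fold higher in Dsg2KO cells, with a log2 fold change of 0.35 (SE 0.08, adjusted p = 0.00289, edgeR), under the size minimum. LRP5 was at 100.4, 116 and 106 CPM in A431CT libraries and at 89.9, 102 and 85.5 CPM in Dsg2KO libraries. Here the conditions overlapped, since Dsg2KO replicate 2 lay above A431CT replicate 1. The mean of LRP5 was 86.1% of that in A431CT cells, with a log2 fold change of -0.22 (SE 0.07, adjusted p = 0.0216, edgeR). Its adjusted p-value was 0.0967 without A431CT replicate 2, 0.0888 without Dsg2KO replicate 1 and 0.102 without Dsg2KO replicate 3. LRP6 lies on chromosome 12 from 12116025 to 12267044 and is overlapped on the opposite strand by BCL2L14, whose log2 fold change was -0.04 (adjusted p = 0.737, edgeR). Where exons of such pairs overlap, their reads cannot be told apart without strand, and no strand setting is given in the sources used here. The overlap was taken from whole gene spans, and overlap of exons was not examined.

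LRP5 remained the more abundant co-receptor, at 17.4 CPM per kb of exon in A431CT and 14.9 in Dsg2KO cells, while LRP6 was at 3.02 and 3.84. The share of LRP6 in their sum was 14.5%, 13.4% and 16.6% in A431CT libraries and 20.8%, 19.0% and 21.8% in Dsg2KO libraries. Every Dsg2KO library held a larger share of LRP6 than every A431CT library. The log2 ratio of LRP6 to LRP5 was higher by 0.57 in Dsg2KO cells. An exact two-sided permutation test gave p = 0.1, the smallest value that 3 against 3 libraries allow (adjusted p = 0.2 over 4 such ratios, exact permutation test). These ratios were chosen after the levels of the genes had been seen.

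**Figure D2:**
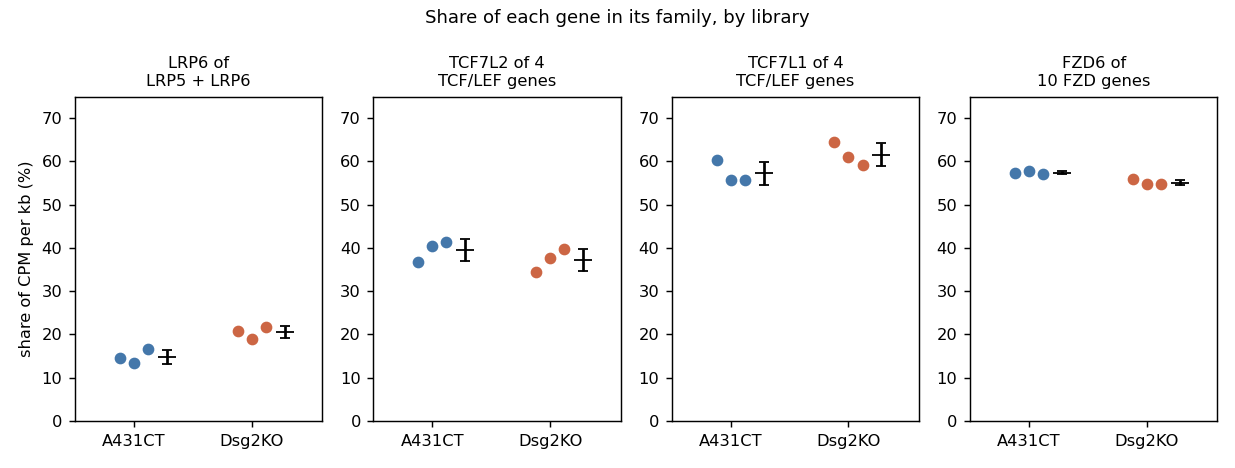
Share of a gene in the summed level of its family, in percent of CPM per kb of exon, for each library. Points are libraries, and bars are mean and SD (n = 3). The LRP6 share lies between 13.4% and 16.6% in A431CT and between 19.0% and 21.8% in Dsg2KO libraries, and the FZD6 share is a little lower in Dsg2KO libraries.

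DKK1, on chromosome 10 from 52314281 to 52318042 on GRCh38, encodes a secreted protein that blocks LRP5 and LRP6, and it was the most abundant of the 10 genes per kilobase of exon. Its start lies within the antisense RNA gene PRKG1-AS1, which was not analysed here. It was at 562, 519 and 597 CPM in A431CT libraries and at 395, 389 and 404 CPM in Dsg2KO libraries. The conditions were far apart relative to their spread, at 559 ± 38.9 CPM and 396 ± 7.30 CPM (SD, n = 3 each). Dsg2KO cells held 70.8% of the A431CT level. The log2 fold change was -0.4985 (SE 0.04, adjusted p = 1.35e-06, edgeR), just short of the size minimum of 0.5. It passed both thresholds without A431CT replicate 2, at -0.55, or without Dsg2KO replicate 3, at -0.51. Across all genes tested, KPNA6, PABPC4 and SSRP1 followed DKK1 most closely over the 6 libraries, with Pearson correlations of log2 CPM of 0.9981, 0.998 and 0.9978. All points share the split into 2 conditions, and the log2 fold changes of the 3 genes were -0.24, -0.32 and -0.11.

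TCF7, which encodes TCF1, had the largest log2 fold change in size of the 7 tested genes, while in CPM the difference was larger in size for 5 of the others, all but WNT10A. It lies on chromosome 5 from 134114681 to 134151865. The libraries held 26, 34 and 23 counts in A431CT and 10, 18 and 16 counts in Dsg2KO cells, or 2.04, 2.51 and 1.78 CPM against 0.671, 1.10 and 0.988 CPM. The conditions did not overlap although the level was low. Dsg2KO cells held 43.6% of the A431CT level, with a log2 fold change of -1.19 (SE 0.33, adjusted p = 0.0133, edgeR). The adjusted p-value was 0.0668 without A431CT replicate 2 and 0.0706 without Dsg2KO replicate 1. SKP1 overlaps the 3′ end of TCF7 on the opposite strand and was at 139 CPM in A431CT and 129 CPM in Dsg2KO cells, with a log2 fold change of -0.11 (adjusted p = 0.0610, edgeR), and its part in the TCF7 counts was not tested.

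TCF7L2, which encodes TCF4, differed in the opposite direction. Its level was 17.1, 18.5 and 17.4 CPM in A431CT cells and 20.05, 21.6 and 23.3 CPM in Dsg2KO cells, without overlap. The mean was 1.23-fold higher, with a log2 fold change of 0.29 (SE 0.09, adjusted p = 0.0203, edgeR), under the size minimum. The adjusted p-value was 0.0687 without A431CT replicate 1, 0.0515 without A431CT replicate 3, 0.0943 without Dsg2KO replicate 3 and 0.0584 with DESeq2. TCF7L1, the fourth factor of the family and mostly a repressor, was outside the 10 genes and stood at 18.5, 16.8 and 15.4 CPM in A431CT and 24.7, 23.2 and 22.9 CPM in Dsg2KO libraries. Its log2 fold change was 0.48 (SE 0.09, adjusted p = 8.83e-04, edgeR), close to the size minimum.

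LEF1, the family member with the least expression, had 0, 1 and 0 counts in A431CT and 2, 0 and 0 counts in Dsg2KO libraries. Both conditions were therefore at the floor of 3 counts per library, which corresponds to 0.183 to 0.236 CPM and covers counting error only. Per kilobase, TCF7L1 supplied 57.3% ± 2.68 and TCF7L2 39.5% ± 2.50 of the summed level of the 4 genes in A431CT cells (SD, n = 3). In Dsg2KO cells they supplied 61.6% ± 2.67 and 37.2% ± 2.62 (SD, n = 3). The shares of TCF7L2 overlapped between conditions (exact two-sided permutation p = 0.4, adjusted p = 0.4 over the 4 ratios), as did those of TCF7L1 (exact permutation p = 0.2, adjusted p = 0.267).

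AXIN2, the most widely used readout of β-catenin activity, had 0, 0 and 2 counts in A431CT libraries and 2, 2 and 1 in Dsg2KO libraries. RNF43 had 0 counts in all 6 libraries. Neither gene exceeded the floor of 3 counts in any library, so no fold is given. Without the low-count filter AXIN2 and LEF1 entered the test together with 27 more genes of the pathway list, and none of these 29 passed (edgeR, lowest adjusted p = 0.192, with 0 at an unadjusted p under 0.05).

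**Figure D3:**
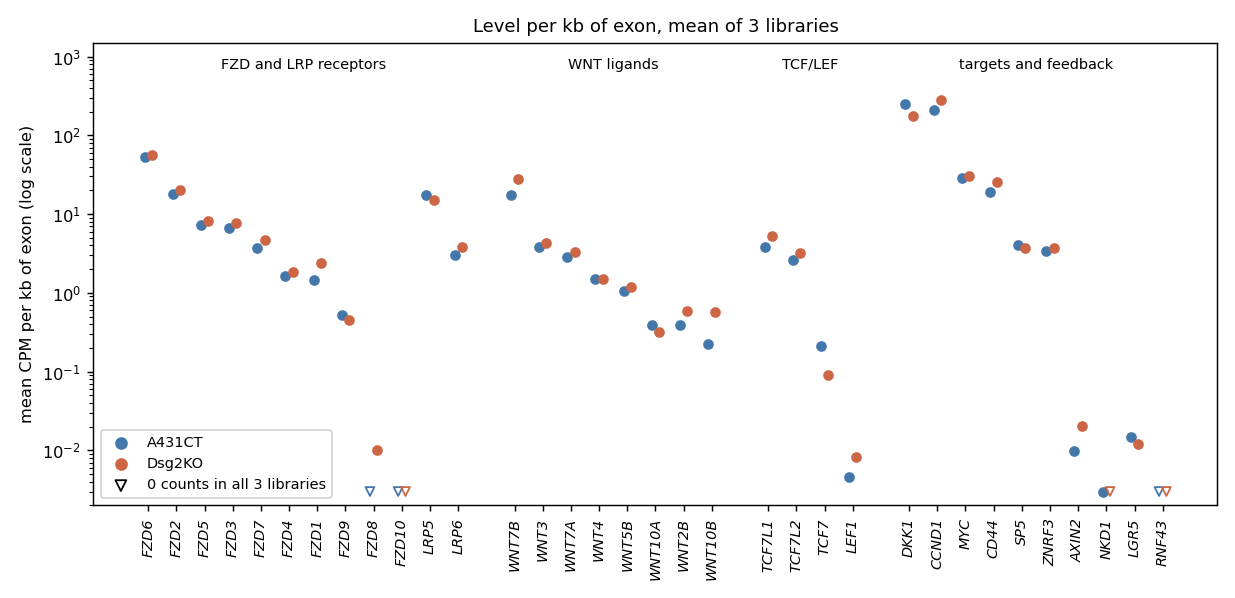
Mean level of selected Wnt genes in A431CT and Dsg2KO cells, in CPM per kb of exon on a log axis. Points are means of 3 libraries, and open triangles mark genes with 0 counts in a condition. Among the genes plotted, FZD6 leads the FZD and LRP receptors and WNT7B the ligands in both conditions, while LEF1, AXIN2, NKD1, LGR5 and RNF43 lie lowest among the TCF/LEF and target genes.

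The other genes of the pathway were taken from a list of 94, of which 58 were tested. By both thresholds 5 were higher and 0 lower in Dsg2KO cells, and by edgeR's adjusted p-value alone 22 were higher and 5 lower. Over all genes tested the corresponding shares were 2.99% and 3.03% by both thresholds and 14.3% and 15.3% by the adjusted p-value alone. Whether the list differs from them was not tested, and the list was chosen with earlier results of these data known. The list had a median log2 fold change of 0.14.

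Of its 18 ligands, 7 were tested. By both thresholds 3 were higher and 0 lower, beside 2.99% and 3.03% of all genes tested. WNT7B, an epithelial ligand that uses canonical signaling in several tissues, was the most abundant. It was at 85.8, 82.7 and 97.5 CPM in A431CT libraries and at 143, 144 and 143 CPM in Dsg2KO libraries. The conditions were well apart, and the log2 fold change was 0.69 (SE 0.05, adjusted p = 3.43e-07, edgeR). WNT10B had 6, 8 and 9 counts in A431CT and 20, 27 and 24 in Dsg2KO libraries, a log2 fold change of 1.34 (SE 0.37). WNT2B was at 4.88 ± 0.428 and 7.32 ± 0.560 CPM (SD, n = 3), a log2 fold change of 0.58, or 0.38 with the median of its chromosomal neighbours taken off. Both of these weaker ligands lost the call without single libraries. The adjusted p-value of WNT10B was 0.0599 without A431CT replicate 1 and 0.0540 without Dsg2KO replicate 2, and that of WNT2B was 0.0508 without A431CT replicate 2, 0.0557 without Dsg2KO replicate 1 and 0.0547 without Dsg2KO replicate 2. WNT3 and WNT7A had log2 fold changes of 0.17 and 0.19 and did not pass. A further 9 ligands, among them WNT1, WNT3A and WNT5A, had at most 3 counts in every library.

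For Wnt release, WLS, which carries Wnt proteins to the cell surface, was lower by the adjusted p-value, with a log2 fold change of -0.32 (SE 0.05, adjusted p = 1.98e-04, edgeR). PORCN, which adds the lipid that Wnt proteins need, was at -0.02 (adjusted p = 0.933). Besides FZD6, LRP5 and LRP6, the list held 13 receptors, and of 10 tested, 7 were higher by the adjusted p-value and 0 lower, beside 14.3% and 15.3% of all genes tested. FZD1 was the 1 receptor past both thresholds, at 8.09, 11.4 and 10.6 CPM in A431CT and 17.0, 15.3 and 17.1 CPM in Dsg2KO libraries. Its log2 fold change was 0.71 (SE 0.13, adjusted p = 6.42e-04, edgeR). PTK7, a co-receptor of planar cell polarity, was at 0.28, FZD3 at 0.23 and RYK at 0.09, of which RYK did not pass the adjusted p-value. ROR1, a co-receptor for Wnt proteins, was named after its value was seen and was higher by the adjusted p-value, at 0.37.

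**Figure D4:**
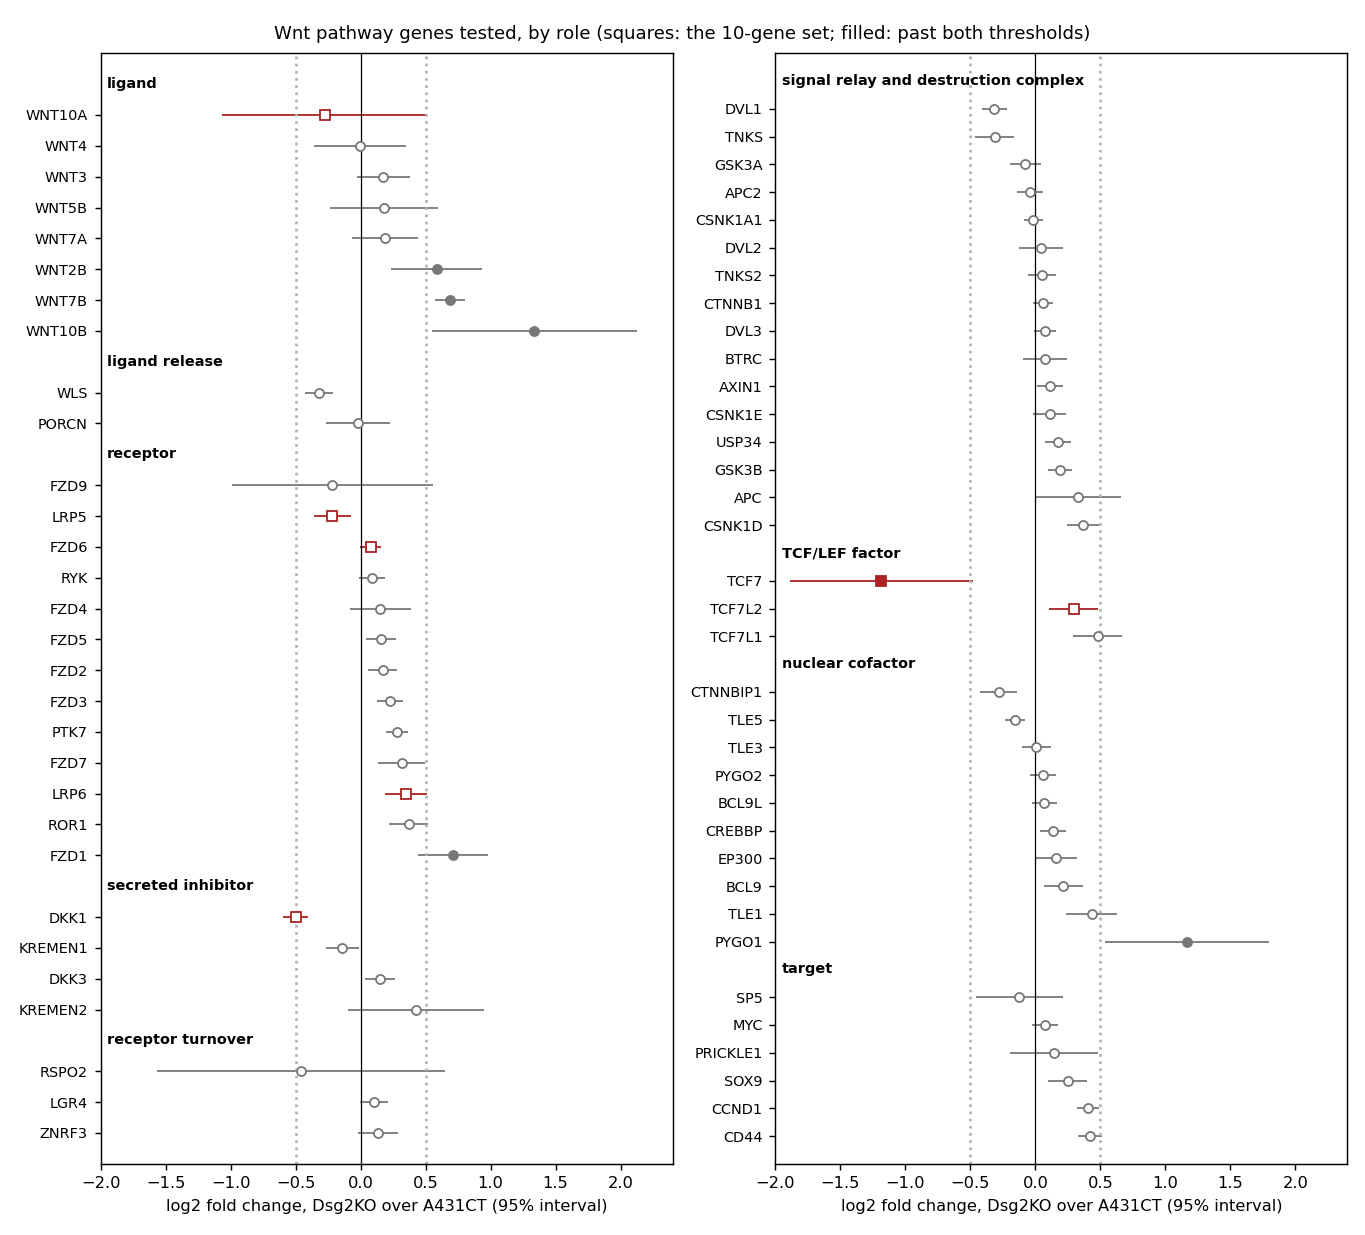
Log2 fold change of Dsg2KO over A431CT with 95% intervals for the 65 tested Wnt genes, grouped by role. Squares are the 7 tested genes of the set of 10, circles the other 58, filled symbols pass both thresholds, and dotted lines mark ±0.5. The receptors LRP5 and LRP6 stand on opposite sides of 0, and TCF7 is the 1 filled symbol below it.

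Beside DKK1 the list held 13 inhibitors, secreted except for the receptors KREMEN1 and KREMEN2. Of these, 8 were at the floor of 3 counts, including SFRP1, SFRP2, WIF1 and NOTUM. DKK3 had a log2 fold change of 0.15 (adjusted p = 0.0454, edgeR) and KREMEN1, a receptor for DKK1, -0.14 (adjusted p = 0.0959). Of the genes that control receptor turnover, ZNRF3, the relative of RNF43, was at 23.9 ± 0.394 CPM in A431CT and 26.3 ± 0.238 CPM in Dsg2KO cells (SD, n = 3). This was a log2 fold change of 0.14 (adjusted p = 0.173, edgeR), with no overlap between libraries. LGR4, which binds R-spondins, was at 0.10 (adjusted p = 0.152, edgeR), while LGR5 and LGR6 had at most 2 counts.

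All 16 relay and degradation complex genes were tested and none passed both thresholds, beside 6.03% of all genes tested. CTNNB1, which encodes β-catenin, was at 313, 326 and 327 CPM in A431CT and 332, 341 and 331 CPM in Dsg2KO libraries. The libraries did not overlap, but the log2 fold change of 0.06 (SE 0.04, 95% interval -0.02 to 0.13, adjusted p = 0.269, edgeR) did not pass. CSNK1A1 was at -0.02 and DVL3 at 0.07. By the adjusted p-value 3 of the 16 relay genes were higher and 2 lower, beside 14.3% and 15.3% of all genes tested. All were named after their values were seen. The higher genes were the kinases CSNK1D (0.37) and GSK3B (0.19) and the deubiquitinase USP34 (0.17). The lower genes were DVL1, which relays the signal from Frizzled (-0.32), and TNKS, which marks AXIN proteins for degradation (-0.31). Of 12 nuclear cofactors 10 were tested, and by the adjusted p-value 4 were higher and 2 lower, beside 14.3% and 15.3% of all genes tested. PYGO1, which links β-catenin to chromatin, was the 1 cofactor past both thresholds. It had 22, 13 and 17 counts in A431CT and 45, 41 and 56 in Dsg2KO libraries, a log2 fold change of 1.17 (SE 0.30, adjusted p = 0.00794, edgeR). By the adjusted p-value alone, TLE1 (0.43), a Groucho repressor, BCL9 (0.21), which tethers PYGO proteins to β-catenin, and the acetyltransferase CREBBP (0.14) were higher too. TLE5 (-0.16), a short relative of the Groucho repressors, and CTNNBIP1 (-0.28), which blocks β-catenin from TCF factors, were lower. The other tested cofactors, BCL9L (0.07), PYGO2 (0.06), TLE3 (0.01) and EP300 (0.16), did not pass the adjusted p-value.

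Of the 5 pathway genes that were lower by the adjusted p-value, WLS, DVL1 and CTNNBIP1 lie on chromosome 1 among genes that were lower as well. The 25 tested genes on either side, or those up to the chromosome end, had a median log2 fold change of -0.24 around WLS, -0.38 around DVL1 and -0.37 around CTNNBIP1. With these medians taken off, the log2 fold changes were -0.08, 0.07 and 0.09. The neighbours of the 7 tested genes of the set of 10 had medians between -0.02 and 0.07, and the log2 fold changes were then -1.24 for TCF7, -0.50 for DKK1, 0.37 for LRP6, -0.25 for LRP5, 0.23 for TCF7L2, 0.01 for FZD6 and -0.31 for WNT10A. Among the other pathway genes ROR1 was then at 0.64 and CSNK1D at 0.61, both over the size minimum, and WNT2B was under it. With the adjusted p-values of the unchanged fold changes kept, 6 genes met both thresholds in place of 5. The fold changes less these medians were not themselves tested.

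Among 11 further targets, 6 were tested and none passed both thresholds, beside 6.03% of all genes tested. By the adjusted p-value 3 of these 6 were higher and 0 lower, beside 14.3% and 15.3% of all genes tested. Of the higher targets, CCND1 (cyclin D1) and CD44, which answer to many other signals too, had log2 fold changes of 0.40 and 0.42 (SE 0.04 each). SOX9, named after its value was seen, was the other, at 0.25 (SE 0.07, adjusted p = 0.0153, edgeR). MYC was at 0.07 and SP5 at -0.12 (adjusted p = 0.604, edgeR), with SP5 at 7.86, 7.15 and 9.99 CPM in A431CT and 7.11, 8.19 and 7.60 CPM in Dsg2KO libraries. The SP5 libraries overlapped. NKD1, NKD2, APCDD1, TNFRSF19 and ASCL2 had at most 2 counts in any library of either condition.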

How the data were processed

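PolyA RNA from A431CT and Dsg2KO cells was sequenced in 3 libraries each. With CLC Genomics Workbench the authors removed adapters and low-quality reads, and mapped paired-end reads to the GRCh38 genome, and the deposited values are whole-number counts per gene without normalization. Values in TPM, which the study's methods name, were not used here. The gene annotation is not given in the sources used here. Counts were tested in R 4.3.3 with edgeR 4.0.16 (TMM factors, filterByExpr with a minimum count of 10 and total of 15, quasi-likelihood F test, no covariates) and Benjamini-Hochberg adjustment over 12857 genes. A gene passed both thresholds when its adjusted p was under 0.05 and its log2 fold change was 0.5 or more in size. CPM values use TMM factors, and log2 CPM a prior count of 2. Exon lengths and positions came from GENCODE version 44 on GRCh38, which placed 19478 of 21462 symbols.

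The 10 genes and all lists were chosen with earlier results of these data known. The rule for naming genes took pathway genes past both thresholds, 6 fixed genes, up to 3 per role by mean CPM, and the 3 genes most correlated with DKK1. The same for AXIN2 is not given, since it had at most 2 counts per library. Others, including the floor genes, DVL1 and CTNNBIP1, were named after their values were seen. The study describes its replicates as biological, but the labels do not say how cultures were separated, so p-values measure the spread between these libraries. On simulated data with this depth, the fit recovered 87 of 100 genes changed by 0.75 and 96 of 100 changed by 1.5 on the log2 scale, with 12 false calls among 12857 genes. The simulation used the means and dispersions of this same fit and drew the changed genes from all levels. It therefore does not give the recovery of genes with few counts, such as TCF7 or WNT10A. Same-numbered replicates were not treated as pairs in the main fit. Alternatives included DESeq2 1.42.0. Figures were drawn with matplotlib 3.10.9.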

Additional observations from a re-analysis of the deposited data

How the results depend on the processing

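The number of the 10 genes past both thresholds was 1 under RLE size factors, total counts, both other filters, DESeq2, the likelihood ratio test, a fold change minimum of 1 and removal of neighbour medians. Without a fold change minimum it was 5, and 27 of the other pathway genes passed in place of 5. With a minimum of 1, 2 of those passed. Leaving out single libraries gave 0 to 2 of the 10 genes and 3 to 6 pathway genes. Without Dsg2KO replicate 1 no gene of the 10 passed, without A431CT replicate 2 DKK1 passed in place of TCF7, and without Dsg2KO replicate 3 both did. The lowest pathway count, 3, came without Dsg2KO replicate 2. No log2 fold change of the 7 tested genes changed sign in any of these settings. Removal of neighbour medians altered the fold changes only and kept the adjusted p-values of the main fit.

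The replicate block gave 1 of the 10 genes and 5 pathway genes, as without it. Residuals of same-numbered libraries correlated by -0.0027, 0.0135 and 0.0539. These values cannot settle whether a number marks a shared day or batch, and the labels do not say. Dividing by the longest transcript in place of all exons moved the LRP6 share to 12.9% in A431CT and 17.9% in Dsg2KO cells, and left TCF7L1 above TCF7L2. WNT10A had 12 to 19 counts per library, and the size of change that could be seen at such counts was not measured.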
